A study of Mus musculus with 33 samples.

Results

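The S100 genes studied here encode small calcium-binding proteins, and 10 of them were followed through the 33 libraries of the series: *S100a1*, *S100a4*, *S100a6*, *S100a8*, *S100a9*, *S100a10*, *S100a11*, *S100a13*, *S100a14* and *S100a16*. Each was found by matching its Ensembl mouse identifier to a symbol, which gave 10 rows of the 32285 in the count files. The libraries came from 8 lines of mouse colon organoids, which are epithelial cultures grown from colon cells. Control was the non-induced line (6 libraries), made from mice of the genotype labelled AKP, which carry floxed *Apc* and floxed *Trp53* among their engineered alleles, with these not yet recombined. Organoid AKP (6 libraries) was recombined in organoid culture by OptoCre, a Cre recombinase that needs doxycycline and blue light. Mini-colon AKP #i to #v (3 libraries each) were organoid lines set up from tumours that arose in mini-colons, tube-shaped colon epithelia in a microfluidic chip, after the same OptoCre activation. In vivo AKP (6 libraries) was grown from colon tumours of AKP mice in which tamoxifen activated Cre from the *Cdx2* promoter. All lines were kept without growth factors before RNA was taken, so every comparison is between starved cultures. The methods speak of independent sets of samples, and the mini-colon and organoid AKP libraries are described as cultures, but the labels tie no library to an animal. The p-values therefore cover variation among cultures of a line, not among mice or separately derived lines.

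S100 proteins usually pair with one another and, once they bind calcium, open a surface that holds a partner protein. Inside epithelial cells several of them work with annexins, cytoskeletal proteins and ubiquitin ligase adaptors, whereas S100A8 and S100A9 are best known as the secreted dimer calprotectin of neutrophils and inflamed epithelium. In colorectal cancer, S100A4 is known for its link with migration and metastasis and is a target of WNT signalling. All 10 genes lie on chromosome 3 of GRCm39, 8 of them between positions 90416091 and 90603071, with *S100a11* (93414382 to 93435293) and *S100a10* (93462213 to 93474510) next to each other farther along. *S100a1* lies on the minus strand and shares 2563 exonic bases with *S100a13* on the plus strand. The strand setting of the counting is not given in the sources used here, so reads of these 2 genes may not be told apart.

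Total counts per library ran from 2438672 to 8256526 (median 3748649). Levels are given as CPM, counts scaled to a common library size, after TMM scaling, and each library read the 3′ ends of transcripts. A letter in the library code, E in 18 libraries and F in 15, split the control, organoid AKP and in vivo AKP lines into 3 libraries of each, whereas #i to #iii had E only and #iv and #v F only. What the letter stands for is not stated. F and E libraries of the same line differed in 22.2% of the 13606 genes tested for control, 30.4% for organoid AKP and 47.2% for in vivo AKP (edgeR, adjusted p under 0.05), so results are also given within each letter. Of the recombined genes, *Trp53* had 14.4 to 19.1 CPM in control, 1.07 to 3.78 in organoid AKP, 7.37 to 11.7 in #iii, 1.97 to 3.93 in the other mini-colon lines and 19.2 to 34.2 in the line labelled in vivo AKP. *Trp53* was therefore lower than in control in organoid AKP and in every mini-colon line, but not in the libraries labelled in vivo AKP. The paper describes floxed *Trp53* for all of these lines. Since 3′ reads can lie outside a deleted part, a level alone does not check the deletion. Why in vivo AKP differed from the other AKP lines was not tested. Neither its recombination nor its label was checked here, and every comparison with in vivo AKP rests on that label. The 9 epithelial markers summed to 10141 to 11340 CPM in control and to 2884 to 3557 CPM in the AKP lines. *Epcam* and *Cdh1* had means of at least 363 CPM in all lines, whereas *Krt20*, a marker of differentiated colonocytes, had 645 CPM in control and 0.46 to 3.63 CPM in the AKP lines, and *Cdx1* had no count in #i, #iii and in vivo AKP. Of the 15 markers of myeloid and other immune cells, *Adgre1*, *Elane*, *Camp* and *Ngp* had no count in any library, and their summed level was mostly *Ly6g*.

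The windows before the start sites are shown for 4 members whose levels are described below, to give the sequence that precedes genes with a large, a shared or a diverging change. They are RefSeq sequences of GRCm38.p6, written 5′ to 3′ and limited to bases outside exons of GENCODE M39. Capitals mark the AP-1 motif (TGANTCA).
S100a4 (chr3:90603520-90603766, + strand, bases -250 to -4 from the start): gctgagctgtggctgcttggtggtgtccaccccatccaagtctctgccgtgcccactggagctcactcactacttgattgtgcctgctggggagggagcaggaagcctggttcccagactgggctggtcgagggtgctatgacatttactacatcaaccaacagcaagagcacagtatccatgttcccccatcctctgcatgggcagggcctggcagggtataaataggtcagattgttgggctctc
S100a6 (chr3:90612644-90612832, + strand, bases -250 to -62 from the start): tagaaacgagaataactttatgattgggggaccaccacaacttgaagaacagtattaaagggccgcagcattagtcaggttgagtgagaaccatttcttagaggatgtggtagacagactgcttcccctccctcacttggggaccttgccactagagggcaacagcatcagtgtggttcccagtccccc
S100a16 (chr3:90537041-90537230, + strand, bases -213 to -24 from the start): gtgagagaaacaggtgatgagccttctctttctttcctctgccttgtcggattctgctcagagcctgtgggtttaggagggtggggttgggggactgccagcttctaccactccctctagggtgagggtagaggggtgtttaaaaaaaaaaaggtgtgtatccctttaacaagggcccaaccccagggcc
S100a11 (chr3:93520246-93520369, + strand, bases -250 to -127 from the start): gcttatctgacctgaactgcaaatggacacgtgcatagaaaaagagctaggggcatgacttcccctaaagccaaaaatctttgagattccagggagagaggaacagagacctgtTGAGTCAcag
RefSeq windows were matched for 8 of the 10 members, with none for *S100a10* and *S100a14*. In the 250 bases before the start, searched on both strands, the AP-1 motif was in 6.75% of all 32851 promoter windows. It was present 136 and 38 bases before the start of *S100a11*, with only the first of these in the stretch printed above, and at -192 in the second of 2 windows of *S100a16*. The TCF/LEF motif (CTTTGAT) was in 3.21% of all windows and in no window of the members.

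*S100a4*, which binds non-muscle myosin and is linked with cell motility, had the widest span among the members with more than 5 CPM in some line. Control libraries held 28.9 to 46.0 CPM with a median of 37.5. Organoid AKP libraries held 7.65 to 11 CPM (median 10.6) and in vivo AKP libraries 0.590 to 4.03 CPM (median 1.54), which came from 3 to 21 counts per library. No library of these 3 lines overlapped a library of another. *S100a4* was 3.76-fold lower in organoid AKP than in control (log2 fold change -1.91 ± 0.19 SE, adjusted p = 8.56e-11). It was 5.36-fold lower in in vivo AKP than in organoid AKP (log2 fold change -2.42 ± 0.25, adjusted p = 1.66e-09). Within letter E the second difference was -1.92 and within letter F -3.33 on the log2 scale, and these differed from each other (difference -1.41 ± 0.52, adjusted p = 0.0454). Against control, in vivo AKP was 20.2-fold lower.

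*S100a16*, a widely expressed member, followed the same order. Control libraries had 364 to 510 CPM (median 420), organoid AKP 158 to 277 CPM (median 227) and in vivo AKP 61.4 to 97.7 CPM (median 78.7), again with no overlap. It was 1.88-fold lower in organoid AKP than in control (log2 fold change -0.91 ± 0.12, adjusted p = 1.99e-08). The step from organoid AKP to in vivo AKP was 2.88-fold (log2 fold change -1.53 ± 0.12, adjusted p = 2.35e-12), at -1.37 within letter E and -1.59 within letter F.

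*S100a6*, calcyclin, binds the ubiquitin ligase adaptor CACYBP and is raised in many proliferating cells. It had 5077 to 6740 CPM in control (median 5726), 2847 to 3984 CPM in organoid AKP (median 3372) and 2106 to 3113 CPM in in vivo AKP (median 2466). All control libraries were above all AKP libraries of these lines, whereas organoid AKP and in vivo AKP overlapped. *S100a6* fell 1.70-fold from control to organoid AKP (log2 fold change -0.77 ± 0.08, adjusted p = 7.60e-10) and was 1.34-fold lower again in in vivo AKP (-0.42 ± 0.08, adjusted p = 0.000154). This second difference was -0.65 within letter F and -0.18 within letter E, where the adjusted p was 0.0996, and the letters differed (adjusted p = 0.00119).

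*S100a1*, best known for calcium handling in muscle, and *S100a13*, known for the non-classical release of FGF1 and interleukin 1α, are the pair with overlapping exons. *S100a1* had 137 to 191 CPM in control, 64.3 to 103 CPM in organoid AKP and 53.6 to 71.9 CPM in in vivo AKP. *S100a13* had 49.7 to 62.1, 22.8 to 36.2 and 15.5 to 25.3 CPM in the same lines. Both were lower in organoid AKP than in control without overlap, by 1.97-fold for *S100a1* (adjusted p = 1.57e-09) and 1.77-fold for *S100a13* (adjusted p = 2.00e-06). Both were lower again in in vivo AKP than in organoid AKP, at log2 fold changes of -0.45 ± 0.11 (adjusted p = 0.00209) and -0.55 ± 0.14 (adjusted p = 0.00240), with overlap between the lines. Within letter E these values were -0.20 (adjusted p = 0.240) and -0.31 (adjusted p = 0.231), and within letter F -0.60 and -0.79.

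*S100a10*, the partner of annexin A2 that holds plasminogen at the cell surface, went in another direction than most members. Control libraries had 400 to 429 CPM with letter E and 600 to 617 CPM with letter F, and organoid AKP libraries had 749 to 932 CPM (median 818). *S100a10* was 1.60-fold higher in organoid AKP than in control (log2 fold change 0.68 ± 0.10, adjusted p = 3.26e-07), with no overlap. The difference was 0.85 within letter E and 0.46 within letter F, and these differed from each other (-0.37 ± 0.11, adjusted p = 0.0122). In vivo AKP libraries had 698 to 752 CPM with letter E and 513 to 651 CPM with letter F. They were lower than organoid AKP (-0.34 ± 0.10, adjusted p = 0.00761), at -0.57 within letter F and -0.09 within letter E (adjusted p = 0.434). Against control, in vivo AKP was higher in the fit of all libraries (0.34 ± 0.10, adjusted p = 0.00331) and within letter E (0.76), but at -0.12 within letter F (adjusted p = 0.139), and the difference between the letters itself passed the test (-0.86 ± 0.11).

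*S100a11*, a partner of annexin A1 in keratinocyte growth control, was lower in organoid AKP (1007 to 1372 CPM, median 1071) than in control (1430 to 2341 CPM, median 1709), by 1.59-fold (log2 fold change -0.67 ± 0.10, adjusted p = 2.15e-07). The difference was -0.36 within letter E and -1.05 within letter F, and these differed (adjusted p = 0.000180). In vivo AKP libraries had 1023 to 1320 CPM (median 1185), at 0.08 ± 0.10 against organoid AKP on the log2 scale (adjusted p = 0.575). *S100a14*, an epithelial member, had 821 to 1128 CPM in control, 739 to 809 CPM in the E libraries and 1122 to 1204 CPM in the F libraries of organoid AKP, and no difference between these lines passed the test (0.03 ± 0.11, adjusted p = 0.824). It had 438 to 636 CPM in in vivo AKP, below all organoid AKP libraries (1.93-fold lower, log2 fold change -0.95 ± 0.11, adjusted p = 1.26e-08), at -0.78 within letter E and -1.04 within letter F.

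**Figure D1:**
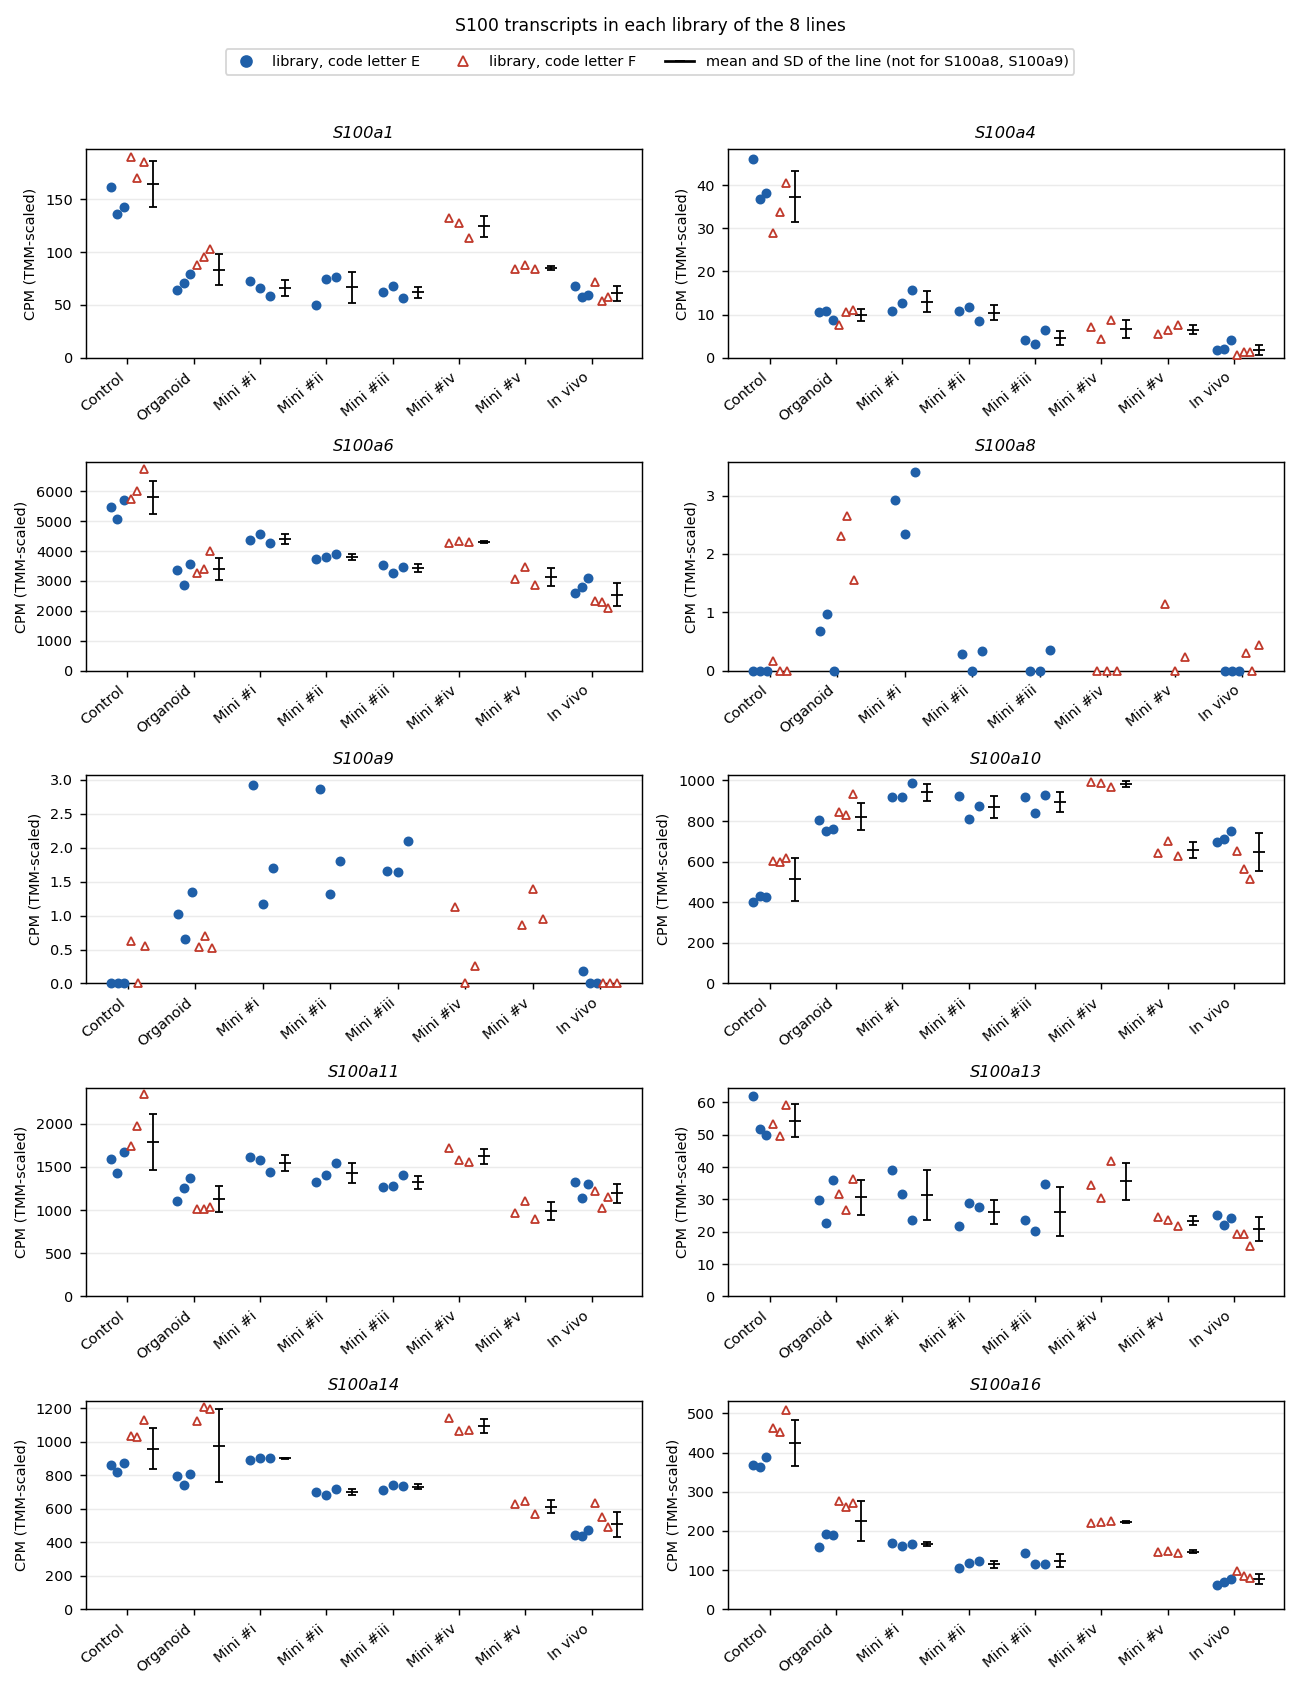
TMM-scaled CPM of each S100 member (vertical axes, from 0) in the 33 libraries by line (horizontal axis), with filled circles for libraries of code letter E, open triangles for letter F and black bars for the mean and SD of a line. The control libraries of *S100a1*, *S100a4*, *S100a6*, *S100a13* and *S100a16* sit above those of all other lines, while *S100a10* has its lowest line mean in control, at 512 CPM.

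*S100a8* and *S100a9* were close to the detection limit, with 89 and 121 counts over all 33 libraries, so they are given as counts. *S100a8* had 1 count over the 6 control libraries and 46 over the 6 organoid AKP libraries, of which 5 were in the E libraries and 41 in the F libraries. The ratio of organoid AKP to control was 44.7 with a 95% exact counting interval of 7.63 to 1803, and the difference passed the test (adjusted p = 3.71e-05), while within letter E the adjusted p was 0.0560. *S100a8* had 28 counts in #i, 3 in #ii, 1 in #iii, 0 in #iv, 6 in #v and 4 in in vivo AKP. In vivo AKP was below organoid AKP (adjusted p = 0.000690), and organoid AKP was 5.75-fold above the level that 3 counts would give in #iv. *S100a9* had 8 counts in control, 21 in organoid AKP and 1 in in vivo AKP. Organoid AKP was 22.2 times in vivo AKP, with a counting interval of 3.57 to 918 (adjusted p = 0.000503). *S100a9* was called higher in organoid AKP than in control only narrowly (adjusted p = 0.0444), and leaving out any 1 of 8 libraries (control replicates 1, 2, 3 and 5 and organoid AKP replicates 1, 2, 3 and 5) took the adjusted p to between 0.0560 and 0.127. The call was also lost with DESeq2, with DESeq2 size factors, without a filter, without identifiers that have no symbol and with the letter as a covariate (adjusted p 0.0506 to 0.0721). Within letter E it was called higher (adjusted p = 0.00430), and within letter F it was below the filter. It was also called lower in in vivo AKP than in control (ratio 8.71, interval 1.17 to 386, adjusted p = 0.0272), where all 8 control counts came from replicates 4 and 6. Without control replicate 4 or 6, or in vivo AKP replicate 2, 3 or 4, that adjusted p was 0.0514 to 0.113. The summed level of the 15 immune markers was 149 to 233 CPM in control, 339 to 410 CPM in organoid AKP and 63.1 to 80.8 CPM in in vivo AKP, and its part in these counts was not tested. Of its neutrophil genes, *Ly6g* had means of 149, 366 and 54.1 CPM in these lines. It fell from organoid AKP to in vivo AKP, as *S100a8* and *S100a9* did, but *Mpo* and *Cxcr2* went the other way. All 10 counts of *Mpo* were in in vivo AKP. *Cxcr2* had 1 count in organoid AKP and 5 in in vivo AKP, of 21 in all lines. *Elane*, *Camp* and *Ngp* had 0. Other markers of the list did not follow *Ly6g* either. In control, organoid AKP and in vivo AKP, *Ptprc* had 1, 4 and 8 counts and *Itgam* 5, 0 and 2. Means of *Cd14* were 30.4, 4.72 and 4.77 CPM and those of *Cd68* 8.20, 9.15 and 10.9 CPM.

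In counts of members, 3 of 10 were higher in organoid AKP than in control, against 37.3% of all genes tested, and 6 were lower, against 33.6%. In in vivo AKP compared with organoid AKP, 0 of 10 members were higher (background 17.4%) and 9 were lower (background 17%). Within letter E the lower members numbered 5 (background 13.9%). *S100a8* and *S100a9* were among the 3 members higher in organoid AKP and the 9 lower in in vivo AKP. Both passed the expression filter only through organoid AKP and mini-colon libraries, so these calls are not independent of the filter. Markers of other cell types moved between these lines too. *Vim* had means of 0.18 CPM in control, 11.7 in organoid AKP, 66.6 in #v and 145 in in vivo AKP, whereas no other of the 10 fibroblast and muscle markers exceeded a mean of 0.475 CPM in any line, and *Lum* and *Thy1* were at 0. The 4 squamous markers summed to 16.8 to 38.2 CPM in control, 120 to 236 CPM in organoid AKP and 2.06 to 7.68 CPM in in vivo AKP, mostly from *Krt14*, with *Trp63* near 0. Their part in the change of the members was not tested. In in vivo AKP compared with control, 1 member was higher (background 38.8%) and 8 were lower (background 33.3%). The median log2 fold change of the members was -0.72, -0.75 and -1.28 in these comparisons, and that of all genes 0.06, 0.00 and 0.08. The comparisons share libraries, so they are not independent of one another. In bulk RNA, fewer cells of a type and less RNA per cell cannot be told apart.

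**Figure D2:**
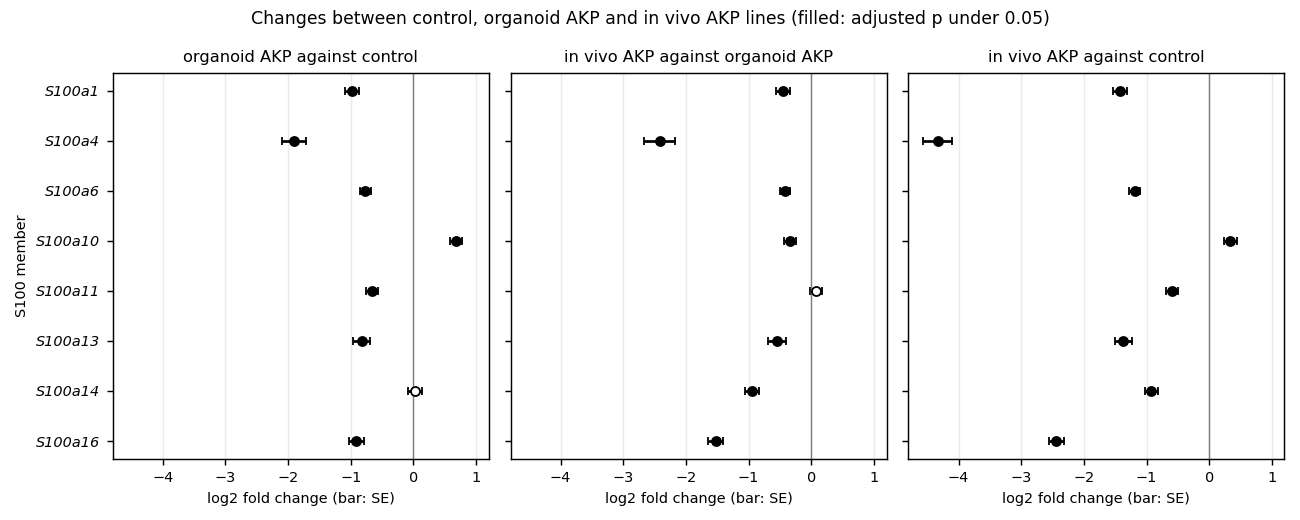
Log2 fold changes (horizontal axes) of the 8 members with more than 3 counts in every line, for the comparisons of control, organoid AKP and in vivo AKP, with bars for the SE and filled points for an adjusted p under 0.05. *S100a4* reaches -4.33 in in vivo AKP against control and *S100a16* -2.44, while *S100a10* lies at 0.68 and 0.34 against control, the second of which was -0.12 within letter F.

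**Figure D3:**
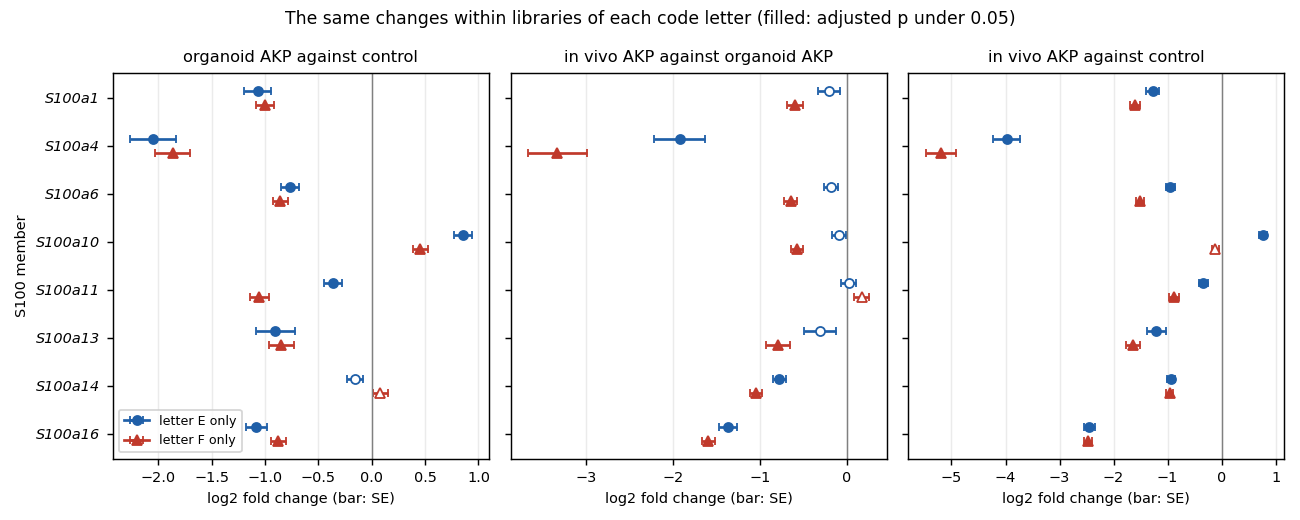
The same log2 fold changes (horizontal axes, bars for the SE) within libraries of code letter E (circles) and F (triangles) alone, filled where the adjusted p was under 0.05. Against control, in vivo AKP lies at -2.45 and -2.47 for *S100a16*, and at 0.76 and -0.12 for *S100a10*.

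Each mini-colon line was then compared with organoid AKP, which had the same Cre but no mini-colon stage. *S100a8* reached 1 CPM only in libraries of organoid AKP, #i and #v. Where it is counted among the members called in these comparisons, its call is therefore not independent of the expression filter. In #i, 2 members were higher (background 3.10%) and 0 lower (background 4.05%). *S100a11* had 1618, 1583 and 1446 CPM there, all above the organoid AKP libraries (log2 fold change 0.45 ± 0.12, adjusted p = 0.0170), and 0.31 within letter E (adjusted p = 0.0212). Without #i replicate 1 or 2 the adjusted p was 0.0842 or 0.0833. *S100a6* had 4374, 4580 and 4252 CPM (0.37 ± 0.10, adjusted p = 0.0249) and 0.43 within letter E. Its adjusted p was 0.0506 to 0.126 without organoid AKP replicate 2, 4 or 5 or any 1 library of #i. Within letter E, *S100a8* and *S100a10* were higher in #i as well, which made 4 members (background 3.56%). Of the E libraries, only those of #i had *S100a8* at 1 CPM or more (2.34 to 3.40 CPM). It passed the filter of that fit through the line where it was called higher, so this call is not independent of the filter. *S100a16* was at -0.44 (adjusted p = 0.0587) and was called lower without organoid AKP replicate 1, 2 or 3 (adjusted p 0.0123 to 0.0433), which are its E libraries, while within letter E it was at -0.12 (adjusted p = 0.529).

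In #ii, 1 member was higher (background 11.9%) and 3 were lower (background 12.7%). *S100a16* had 104, 117 and 122 CPM, below every organoid AKP library (-0.98 ± 0.15, adjusted p = 1.59e-05), and was -0.65 within letter E. *S100a14* had 697, 683 and 716 CPM (-0.48 ± 0.14, adjusted p = 0.00881), but only -0.16 within letter E (adjusted p = 0.120). *S100a11* was at 0.33 ± 0.12 (adjusted p = 0.0341) and 0.19 within letter E (adjusted p = 0.110), and its adjusted p was 0.0631 to 0.172 without organoid AKP replicate 4, 5 or 6 or #ii replicate 2 or 3. *S100a8* had 3 counts (organoid AKP over #ii 7.26, interval 2.33 to 36.5, adjusted p = 0.0314), and its adjusted p was 0.506 within letter E and 0.0614 to 0.120 without organoid AKP replicate 4 or 5 or any 1 library of #ii. In turn, *S100a1* was called lower without organoid AKP replicate 1 (adjusted p = 0.0443), though within letter E it was at -0.09 (adjusted p = 0.661), and *S100a9* higher without organoid AKP replicate 3 (adjusted p = 0.0352).

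In #iii, 0 members were higher (background 7.45%) and 5 were lower (background 8.79%). *S100a4* had 4.14, 3.11 and 6.31 CPM, below the lowest organoid AKP library (-1.19 ± 0.29, adjusted p = 0.00627), and was -1.23 within letter E (adjusted p = 0.00198). Without #iii replicate 2 it was -0.93 (adjusted p = 0.0749). *S100a16* had 143, 115 and 115 CPM (-0.86 ± 0.15, adjusted p = 0.000150) and was -0.55 within letter E. The other 3 calls, for *S100a1* (-0.43), *S100a14* (-0.42) and *S100a8* (1 count), did not pass the test within letter E, at adjusted p of 0.284, 0.373 and 0.265. *S100a1* and *S100a14* also missed it without organoid AKP replicate 4, 5 or 6 or any 1 library of #iii (adjusted p 0.0536 to 0.158), and *S100a8* without #iii replicate 1 or 2 (adjusted p 0.0918 and 0.117).

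In #iv, 3 members were higher (background 2.55%) and 1 was lower (background 2.35%). *S100a1* had 132, 128 and 114 CPM, above all organoid AKP libraries (0.57 ± 0.13, adjusted p = 0.00797), and was 0.38 within letter F. Without #iv replicate 1 or 2 its adjusted p was 0.0702 or 0.0524. *S100a11* had 1722, 1585 and 1560 CPM (0.52 ± 0.12, adjusted p = 0.00448; 0.67 within letter F), with an adjusted p of 0.0518 without #iv replicate 1. *S100a6* was at 0.34 ± 0.10 (adjusted p = 0.0446), with an adjusted p of 0.0586 to 0.158 without organoid AKP replicate 1, 2, 3, 4 or 5 or any 1 library of #iv. *S100a8* had 0 counts in #iv (adjusted p = 0.0184), and 0.0839 to 0.0908 without any 1 of its libraries. Within letter F *S100a16* was lower too, at -0.28 (adjusted p = 0.00503), which made 2 lower members with *S100a8* (background 6.69%).

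In #v, 0 members were higher (background 5.11%) and 2 were lower (background 5.48%). *S100a14* had 626, 646 and 568 CPM, below every organoid AKP library (-0.67 ± 0.14, adjusted p = 0.000935), and *S100a16* had 147, 150 and 143 CPM (-0.62 ± 0.15, adjusted p = 0.00422). Within letter F, the letter of all #v libraries, both were lower (-0.94 and -0.88) and 5 more members were called lower, namely *S100a4* (-0.56), *S100a6* (-0.18), *S100a8*, *S100a10* (-0.41) and *S100a13* (-0.44), against 13.7% of all genes in that fit. *S100a8* had 6 counts in #v and an adjusted p of 0.0921 in the fit of all libraries, and 0.0377 and 0.0324 without organoid AKP replicate 3 or #v replicate 1.

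**Figure D4:**
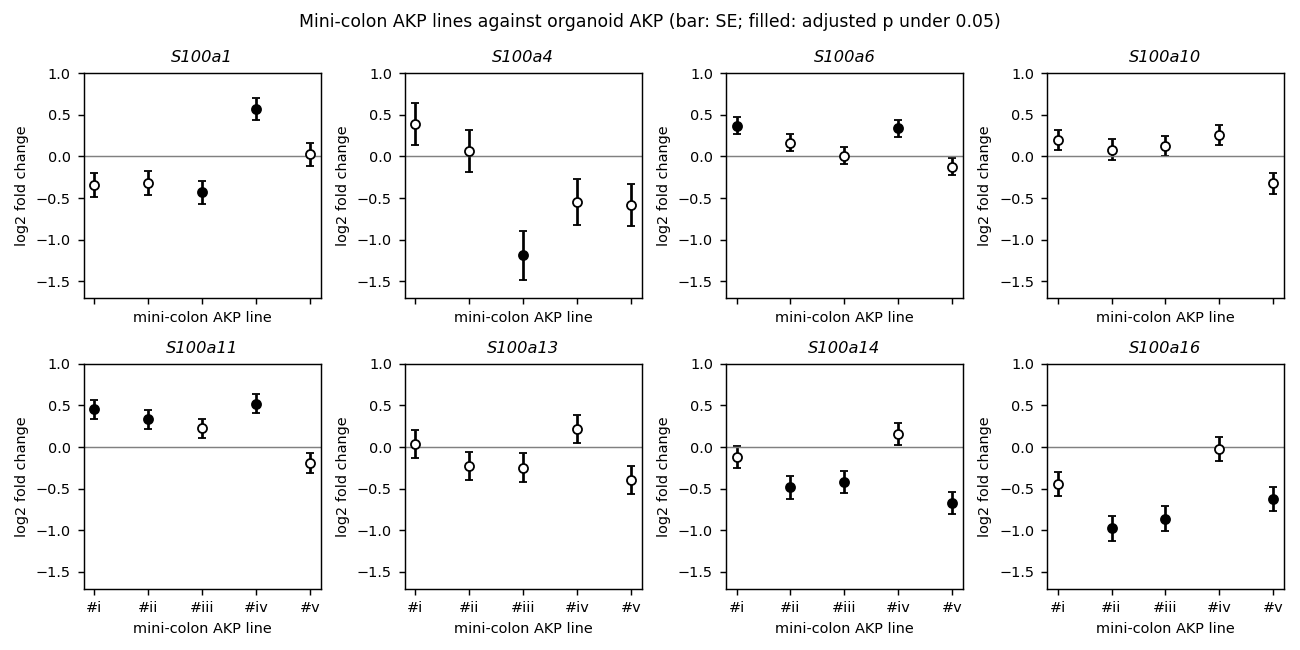
Log2 fold changes of 8 members in each mini-colon AKP line against organoid AKP (vertical axes, bars for the SE, horizontal axis the line), filled where the adjusted p was under 0.05. *S100a16* is lowest in #ii at -0.98 and *S100a4* in #iii at -1.19, and *S100a11* is above 0 in #i to #iv, with calls in #i, #ii and #iv that were 0.31, 0.19 and 0.67 within letter, the second without a call.

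The mini-colon lines also differed from one another in 8 of 10 members (F test, background 46.7%), with *S100a9* (adjusted p = 0.0967) and *S100a13* (adjusted p = 0.0545) as the others. *S100a10* lost its call without #v replicate 1 or 3 (adjusted p = 0.0515 and 0.0782). *S100a9* gained one without #iv replicate 1 (adjusted p = 0.0328), as did *S100a13* without #i replicate 3, #iii replicate 3 or #iv replicate 2 (adjusted p 0.0177 to 0.0482). Since #i to #iii carry the letter E only and #iv and #v F only, this F test mixes line with letter. With the letter as a covariate 29.6% of all genes were called, and 70.8% when only these lines were fitted. *S100a13* was called in each of these fits and *S100a9* in the second. *S100a8* is among the 8 members called, and its calls here and in #v against #i are not independent of the expression filter. The paper compared #v, crypt-enriched, with #i, lumen-enriched, because they scored highest and lowest for its in vivo AKP signature. That signature came from the genes differing between the in vivo and organoid AKP lines. Lower levels in #v of members low in in vivo AKP are therefore not independent of this choice. In #v compared with #i, 0 members were higher (background 12.5%) and 6 were lower (background 11.9%). They were *S100a11* (902 to 1107 against 1446 to 1618 CPM, -0.64 ± 0.14, adjusted p = 0.00115), *S100a6* (-0.49 ± 0.12, adjusted p = 0.00351), *S100a10* (-0.52 ± 0.14, adjusted p = 0.00833), *S100a14* (-0.55 ± 0.15, adjusted p = 0.00956), *S100a4* (-0.98 ± 0.29, adjusted p = 0.0155) and *S100a8* (6 against 28 counts, adjusted p = 0.0109). *S100a4* lost its call without #i replicate 3 or #v replicate 1 or 2 (adjusted p 0.0520 to 0.0853) and *S100a8* without #v replicate 2 or 3 (adjusted p 0.0624 and 0.0611). All #v libraries carry the letter F and all #i libraries the letter E, so the comparison holds no library pair of the same letter. With the letter as a covariate, whose effect then comes from the other lines, *S100a4* was at -0.70 (adjusted p = 0.156) and *S100a16* was called lower (-0.61, adjusted p = 0.000695), while *S100a6*, *S100a8*, *S100a10*, *S100a11* and *S100a14* kept their calls. This fit assumes the same letter effect in every line. For *S100a10*, however, F against E was 0.54 in control and -0.32 in in vivo AKP on the log2 scale. For *S100a11* it was 0.37 in control and -0.29 in organoid AKP. For *S100a14* it was above 0 in control, organoid AKP and in vivo AKP (0.32, 0.59 and 0.31). The calls kept are therefore not separated from the letter.

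Over the 8 lines, control had the highest mean for *S100a1*, *S100a4*, *S100a6*, *S100a11*, *S100a13* and *S100a16*, and in vivo AKP the lowest mean for *S100a1*, *S100a4*, *S100a6*, *S100a9*, *S100a13*, *S100a14* and *S100a16*. Except for *S100a16*, the libraries of in vivo AKP overlapped those of the line next to it in each of these genes, as with *S100a1* at 61.3 CPM against 61.9 CPM in #iii. Control did not overlap the line next to it for *S100a1*, *S100a4*, *S100a6*, *S100a13* and *S100a16*. For *S100a11* control (1793 ± 324 SD, n = 6) and the next line, #iv (1622 ± 87.4, n = 3), overlapped. For *S100a14*, #iv (1091 ± 41.0 SD, n = 3) led organoid AKP and control, but their libraries overlapped. For *S100a10*, #iv was the highest line (967 to 995 CPM, mean 982) and overlapped #i. Most other neighbours in the order overlapped too, as the plot of CPM by library shows.

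The genes named by the fixed rule as most like each member, by Pearson correlation of log2 CPM over the 33 libraries, describe the pattern only, since the libraries fall into lines and share a scaling. *S100a4* was most like *Kifc3* (0.93), *Pmp22* (0.93) and *Lbh* (0.93), and *S100a16* most like *Emp1* (0.95), *Gulp1* (0.94) and *Tspan1* (0.93). *S100a6* was most like *Slc25a24* (0.95), *Ano1* (0.93) and *Perp* (0.92), and *S100a1* most like *Npnt* (0.92), *Cdc42ep2* (0.92) and *Nedd9* (0.92). *S100a13* was most like *Tmie* (0.90), *S100a6* (0.89) and *Lbh* (0.88), and *S100a11* most like *Mef2d* (0.83), *Msln* (0.81) and *S100a6* (0.78). *S100a10* was most like *Ghitm* (0.95), *Cth* (0.94) and *Cnih1* (0.92), and *S100a14* most like *Anxa5* (0.92), *Ptpn13* (0.87) and *Lrrc66* (0.85). For *S100a9* the values were 0.83 to 0.87 (*Ctsc*, *Gtf3a*, *Eif3l*) and for *S100a8* 0.70 to 0.71 (*Slc39a13*, *Irx3*, *Acsbg1*), and these rest on few counts.

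Of 16 partners and receptors of S100 proteins, 5 were higher and 7 lower in organoid AKP than in control, beside 37.3% and 33.6% of all genes, and the counts for in vivo AKP against organoid AKP were 2 higher and 7 lower, beside 17.4% and 17%. The annexins *Anxa2*, the partner of S100A10, and *Anxa1*, the partner of S100A11, were higher in organoid AKP than in control (log2 fold changes 0.87 and 1.13) and lower in in vivo AKP than in organoid AKP (-0.94 and -0.90). *Ahnak*, a scaffold that binds S100A10 with annexin A2, fell in both steps (-1.56 and -0.57). *Cacybp*, the binding partner of S100A6, was 3.14-fold higher in organoid AKP than in control and then lower in in vivo AKP (-0.25 ± 0.08, adjusted p = 0.0166). *Myh9*, the myosin that S100A4 binds, was 2.70-fold lower in organoid AKP than in control and at 0.16 ± 0.07 between in vivo AKP and organoid AKP (adjusted p = 0.0739). Among receptors, *Tlr4* was 1.80-fold lower in organoid AKP than in control, and *Ager* had means of 0.41 to 0.93 CPM over the lines, with no call in these comparisons. *Plau*, the plasminogen activator urokinase, was at -0.14 ± 0.16 in organoid AKP against control (adjusted p = 0.428) and fell 4.91-fold from organoid AKP to in vivo AKP (adjusted p = 2.72e-12). These values were not recomputed within each letter.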

How the data were processed

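Raw read counts per gene, whole numbers without normalisation, were deposited by the authors for 33 QuantSeq 3′ RNA-seq libraries. Per the paper and the submitters' processing notes, reads were aligned with STAR to GRCm39 and analysed with edgeR and limma in R 4.1.2. Annotation, counter and strand setting are not given in the sources used here. Of 32285 identifiers, 31674 had a symbol in GENCODE M39, and the other 611 held 6.85% of counts.

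Genes were kept where 3 or more libraries had 1 CPM or more (13606 genes), TMM-scaled and tested in R 4.3.3 by edgeR 4.0.16 (quasi-likelihood, robust fit), in 1 model with a coefficient per line, two-sided, with Benjamini-Hochberg adjustment over all genes and a threshold of 0.05. All 10 members passed this filter, *S100a8* and *S100a9* with few counts. No control or in vivo AKP library reached 1 CPM for either, so both passed only through organoid AKP and mini-colon libraries. Fits were tested on simulated counts. Total counts were 2438672 to 8256526 per library. Counting intervals are 95% Clopper-Pearson, the floor is 3 counts over a line, and both cover counting error only. Libraries of a line differed by more than sampling noise. Alternatives used limma 3.58.1, DESeq2 1.42.0, other scaling, filters and samples. The letter as a covariate and the fits per line and letter were added after the data were seen. Tables and figures were made in Python 3.11.15 (pandas 2.3.3, scipy 1.17.1, matplotlib 3.10.9).

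The members, gene lists and comparisons were chosen with earlier results of these data known. Named genes are all members, the genes of the fixed lists, and for each member the 3 genes, with at least 5 CPM on average and neither predicted nor pseudogenes, that had the highest Pearson correlation. One engineered allele of the AKP genotype is not reported here.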

Additional observations from a re-analysis of the deposited data

Results flagged for a closer look

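Among 30 sets of 6 libraries (10 members in control, organoid AKP and in vivo AKP), 2 held a library apart from the others by Dixon's ratio, where chance gives about 5% of sets. *S100a8* had 0.156 CPM in control replicate 4 and 0 in the other libraries of that line. *S100a9* had 0.178 CPM in in vivo AKP replicate 1 and 0 in the others. Each value is a single read. With all other libraries of the set at 0 the ratio is fixed at 1, so the 5% share does not apply to these 2 sets.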

How the results depend on the processing

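Over the alternatives other than leaving out a library, 830 values kept direction and side of the threshold, 37 lost a call, 32 gained one and 2 changed sign, and with 1 library left out 942 kept both, 67 lost a call and 11 gained one. The sign changes were *S100a10* in in vivo AKP against control with letter F only (-0.12) and *S100a9* there with letter E only (1.55, adjusted p = 0.450, edgeR). Causes were not tested. The share of all genes called in the same direction and fit follows each count in brackets. Letter E only gave 5 members lower in in vivo AKP against organoid AKP (13.9%), 4 higher in #i (3.56%), 1 lower in #ii (12.1%) and 2 lower in #iii (8.58%). Letter F only gave 0 higher in in vivo AKP against control (36.7%), 2 lower in #iv (6.69%) and 7 lower in #v (13.7%). The letter as a covariate gave 2 lower in #iii (5.42%) and 4 lower in #v (7.11%). Fitting only the lines compared gave 0 higher in in vivo AKP against control (35.9%), 2 higher in #ii (12.3%), 0 lower in #iv (2.02%) and 1 higher in #v against #i (25.1%). Limma-voom gave 2 higher in #ii (13.7%) and 0 lower in #iv (1.81%), and DESeq2 gave 1 lower in #i (5.53%). The replicate block gave 0 higher in #ii (9.59%), 2 lower in #iii (4.63%) and 1 higher in #v against #i (16.9%). Replicates 1 to 3 carry the letter F in #iv and #v but E in the other lines, so this block mixes the letter with the lines. In #iv it raised the share of all genes called higher from 2.55% to 12.8%, and lower from 2.35% to 11.1%. Deviations of same-numbered libraries from line means correlated at -0.103 to 0.375 over 36 pairs, with 15 over 0.1, and within letters 2 were. Differently numbered libraries were not compared for reference, so these values do not show whether replicate numbers pair the samples. Leaving out 1 library at a time gave 0 to 2 members higher in #i (0.699% to 5.59%), 0 to 2 in #ii (7.27% to 13.8%) and 0 to 3 in #iv (1.27% to 2.69%), and 0 to 1 lower in #i (0.935% to 7.06%), 1 to 5 in #iii (4.10% to 10.5%) and 0 to 1 in #iv (0.971% to 2.58%). Few counts limit *S100a8* and *S100a9*, whose calls in the filtered fits are not independent of the expression filter.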

Other observations

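Among the other S100 genes on the fixed list, *S100a7a*, the mouse psoriasin relative, had 0.384 to 2.19 CPM in control, 8.78 to 20.1 CPM in organoid AKP, 4.64 to 19.6 CPM in the mini-colon lines and 0.961 to 1.96 CPM in in vivo AKP. It was 9.73-fold higher in organoid AKP than in control (edgeR, adjusted p = 9.20e-14) and 10.7-fold lower in in vivo AKP than in organoid AKP (adjusted p = 2.76e-13). *S100a2* had 0.758 to 2.10 CPM in control and 15.8 to 33.7 CPM in #i to #iii, which all carry the letter E. In organoid AKP it had 7.80 to 15.3 CPM in the E libraries and 2.24 to 4.66 CPM in the F libraries. In the F lines #iv and #v it had 3.92 to 7.76 and 1.43 to 2.33 CPM. It had 11.4 to 14.2 CPM in the E libraries of in vivo AKP and 0.400 to 2.40 CPM in its F libraries. *S100g*, a calcium-binding protein of absorptive epithelium, had 54 counts over the control libraries, none in organoid AKP and #i to #iv, 1 in #v and 3 in in vivo AKP, all of those 3 in replicate 6. The control level was 18.5 times the floor that 3 counts would give in organoid AKP (adjusted p = 6.70e-06).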
